A study of Mus musculus with 12 samples.

Results

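The genes described here carry glucose into the cell and break it down to lactate. They are the glucose transporter gene Slc2a1 and the enzyme genes Hk2, Gpi1, Pfkl, Aldoa, Tpi1, Pgk1, Pgam1, Eno1 and Ldha, 10 genes in all. They were chosen by name, as the rows of the expression table whose Ensembl mouse gene identifier maps to one of these symbols. All 10 were found among the 43430 genes of the table, and all 10 were among the 11419 genes tested. The cells are alveolar macrophages, phagocytes that live in the air spaces, sequenced from polyadenylated RNA in a lung transplant model of the mouse. The 12 libraries form 3 groups of 4, taken from naive lungs and at 2 h or 24 h after reperfusion, when blood flow is restored. Every library is labelled as male, 14 weeks old and of the genotype Cx3cr1gfp/+B6, in which one copy of the chemokine receptor gene Cx3cr1 carries a green fluorescent reporter, so the controls carry that allele too. The word Allo, left unexplained by the labels, stands in the titles of both reperfusion groups. Surgery, reperfusion and whatever that word stands for therefore cannot be told apart in a comparison with naive lungs. The labels do not say whether the sequenced macrophages were of donor or recipient origin. Nor do they say whether replicate libraries are of different mice, so the spread behind the p-values is that between these libraries and could be technical.

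As background, glucose enters most cells through facilitative transporters and is trapped by hexokinase as glucose 6-phosphate. The enzymes that follow rearrange and split this sugar and then harvest ATP on the way to pyruvate, and lactate dehydrogenase turns pyruvate into lactate, which restores the NAD+ that glycolysis needs. Macrophages exposed to inflammatory signals or low oxygen are known to raise glucose uptake and glycolysis, in part through the transcription factor HIF-1. Resting alveolar macrophages live in air spaces that hold little glucose and are known for a metabolism built around lipids and mitochondria.

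Values are RPKM, reads per kilobase of gene length, normalised to sequencing depth. Library totals, recovered from the steps of the values, were 6112586 to 8796071 reads in naive. At 2 h they were 7242824 to 10347265 and at 24 h 9129420 to 11997945, so depth moved with the group. The limit that a count of 0 allows, 3 reads, is 0.25 to 0.491 RPKM for a gene of 1 kb and covers counting error only. The gene lengths behind the values equal the exon union of the reference annotation in 14.1% of tested genes, so levels are compared between groups and never between genes. All 12 of 12 alveolar macrophage markers had a mean of at least 1 RPKM in every group, among them Chil3, Marco, Siglecf and Pparg, and their summed level was 11800 to 12200 RPKM in naive, 8000 to 9340 RPKM at 2 h and 9400 to 11400 RPKM at 24 h. Most of that sum was Chil3, with means of 7780, 4970 and 7800 RPKM in naive, at 2 h and at 24 h, so the sum mainly follows this gene. Siglecf went from 58.3 RPKM in naive to 27.1 at 24 h, and Marco from 94.9 to 398. Of the 12 markers, 4 were lower and 1 higher than in naive at 2 h, and 8 were lower and 2 higher at 24 h. Over all tested genes 22.0% were called lower and 14.7% higher at 2 h, and 20.6% and 25.3% at 24 h. In bulk RNA, fewer cells of a type and less RNA per cell cannot be told apart.

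More of the genes were called at 24 h than at 2 h. At 2 h 3 of the 10 genes were higher than in naive, Slc2a1, Hk2 and Pgam1, and 0 were lower. This was against a background of 14.7% of all tested genes called higher and 22.0% called lower in that comparison. At 24 h 9 of the 10 were higher than in naive and 0 were lower, against a background of 25.3% called higher and 20.6% called lower, and Gpi1 was the one that did not pass. Between the reperfusion times 7 of the 10 were higher at 24 h than at 2 h and 0 were lower, against backgrounds of 30.9% and 21.5%. For all 3 comparisons the number of genes called lower was also 0 at an unadjusted p under 0.05 and by voom on recovered reads. Calls are from limma on log2(RPKM + 1) with a Benjamini-Hochberg adjusted p under 0.05 over all genes tested.

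For 4 of the 10 genes every 2 h library exceeded every naive library, which happened for 14.0% of all tested genes. The same held for 9 of 10 genes at 24 h against naive (background 25.8%) and for 7 of 10 at 24 h against 2 h (background 27.5%). The median log2 fold change of the 10 genes was 0.11 at 2 h against naive, beside -0.04 over all tested genes. It was 0.93 at 24 h against naive, beside 0.0, and 0.56 at 24 h against 2 h, beside 0.05. Reads of the 10 genes together made up 0.237% ± 0.0033 of the library total in naive, 0.25% ± 0.0151 at 2 h and 0.37% ± 0.0491 at 24 h (SD, n = 4 each). These comparisons share libraries, so their counts are not independent of each other.

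**Figure D1:**
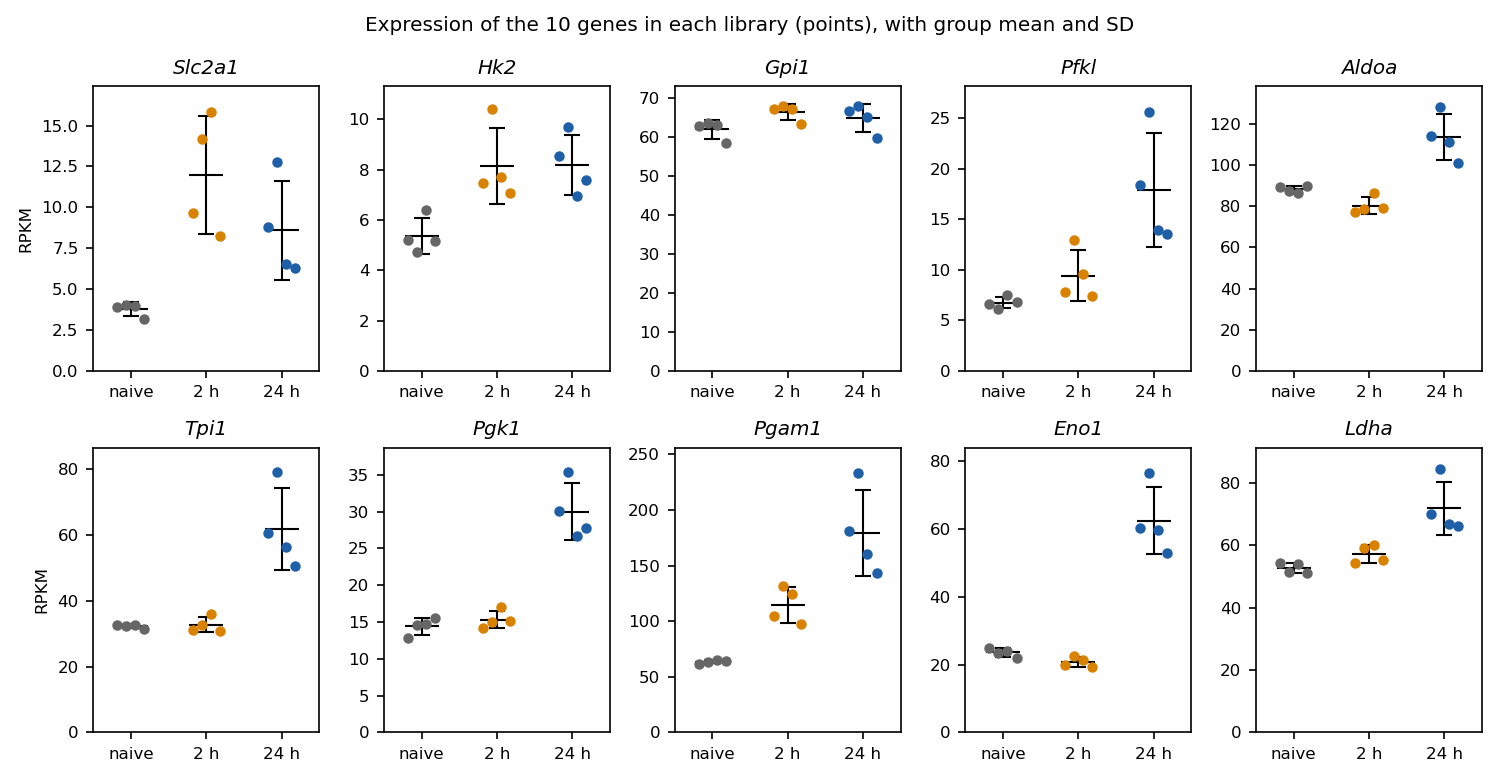
Expression of each of the 10 genes in RPKM (vertical axis, starting at 0) for the naive, 2 h and 24 h groups; points are libraries in replicate order, and the black bars are the group mean and SD (n = 4). Slc2a1, Hk2 and Pgam1 are already raised at 2 h, Gpi1 stays between 58.5 and 68.0 RPKM throughout, and Eno1, Pgk1 and Tpi1 sit near their naive level at 2 h and well above it at 24 h.

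Slc2a1 (ENSMUSG00000028645, chromosome 4, 119108711 to 119137983, plus strand, GRCm38) encodes GLUT1, the main glucose transporter of many cell types. Its RPKM values were 3.9, 4.06, 3.97 and 3.17 in naive, 9.64, 14.2, 15.8 and 8.23 at 2 h, and 8.8, 12.8, 6.52 and 6.28 at 24 h. Every library after reperfusion was above every naive library, and the reperfusion groups overlapped each other. The group means were 3.77 ± 0.41, 12.0 ± 3.6 and 8.61 ± 3.03 RPKM (SD, n = 4 each). The rise was 3.17-fold at 2 h (log2 fold change 1.40 ± 0.22, SE, adjusted p = 0.000662) and 2.28-fold at 24 h (0.96 ± 0.22, SE, adjusted p = 0.00386). The mean at 24 h lay below that at 2 h, a log2 difference of -0.44 with a 95% interval of -0.92 to 0.04 that did not pass (adjusted p = 0.116). That difference passed when 24 h replicate 2 was left out (-0.63, adjusted p = 0.0213) or 2 h replicate 4 was left out (-0.59, adjusted p = 0.0425). The spread was wide in both reperfusion groups, with a coefficient of variation of 30.1% at 2 h and 35.2% at 24 h against 10.9% in naive.

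The other facilitative transporter genes gave little signal. Of 10 looked up, Slc2a8 was the one with enough of it to be tested, and it was 2.05 ± 0.142 RPKM in naive, 1.92 ± 0.444 at 2 h and 2.01 ± 0.504 at 24 h (SD, n = 4 each), and passed in 0 of 3 comparisons by limma (unadjusted p from 0.569 to 0.813). Slc2a3, which encodes the high-affinity transporter GLUT3, had means of 0.175, 0.232 and 0.123 RPKM in naive, at 2 h and at 24 h. Slc2a6, also not tested, had means of 0.78, 1.01 and 0.532 RPKM. Its libraries ran from 0.637 to 0.887 in naive, 0.89 to 1.12 at 2 h and 0.478 to 0.622 at 24 h, without overlap. Slc2a2 and Slc2a7 were listed at 0 in all 12 libraries, and Slc2a4, the insulin-responsive transporter of muscle and fat, did not exceed 0.0311 RPKM.

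Hk2 (ENSMUSG00000000628, chromosome 6, 82725025 to 82774454, minus strand) encodes hexokinase 2, an inducible hexokinase that phosphorylates glucose. Its values were 5.22, 4.71, 6.38 and 5.15 RPKM in naive, 7.47, 10.4, 7.71 and 7.08 at 2 h, and 8.54, 9.71, 6.94 and 7.58 at 24 h. All 8 libraries after reperfusion lay above the 4 naive ones, by as little as 6.94 against 6.38 RPKM at the nearest pair. The rise was 1.52-fold at 2 h (log2 fold change 0.52 ± 0.12, SE, adjusted p = 0.00719) and 1.53-fold at 24 h (0.53 ± 0.12, SE, adjusted p = 0.00444). The times did not differ beyond their spread, with means of 8.16 and 8.2 RPKM and a 95% interval of -0.26 to 0.28 for the log2 difference.

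Among the other hexokinase genes, Hk3, a form known from blood cells, was 2.82 RPKM in naive, 2.33 at 2 h and 2.91 at 24 h. It was lower at 2 h than in naive (log2 fold change -0.20, adjusted p = 0.0252). Hk1 had means of 1.02, 1.04 and 1.04 RPKM in naive, at 2 h and at 24 h, and Adpgk, whose product phosphorylates glucose with ADP, had means of 15.0, 13.9 and 14.7 RPKM, with 0 of 3 comparisons passed by limma for either, also at an unadjusted p under 0.05. Hk1 and Adpgk were chosen for mention after their values were seen, like Slc2a3, Pfkm and Ldhb and the other untested genes with values here.

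Gpi1 (ENSMUSG00000036427, chromosome 7, 34201330 to 34230336, minus strand) encodes glucose-6-phosphate isomerase, which makes fructose 6-phosphate. It passed in 0 of the 3 comparisons by limma, also at an unadjusted p under 0.05. Its values were 63.0, 63.8, 63.1 and 58.5 RPKM in naive, 67.2, 68.0, 67.3 and 63.5 at 2 h, and 66.7, 68.0, 65.2 and 59.9 at 24 h. The groups overlapped in all 3 comparisons, and the replicate numbered 4 was the lowest in each group. The log2 fold change was 0.10 at 2 h (95% interval -0.01 to 0.21, adjusted p = 0.143) and 0.06 at 24 h (-0.05 to 0.17, adjusted p = 0.33). With median-ratio scaling the difference at 2 h passed at a size of 0.15 (adjusted p = 0.0399).

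Pfkl (ENSMUSG00000020277, chromosome 10, 77986947 to 78010083, minus strand) encodes the liver-type subunit of phosphofructokinase, the enzyme of the first committed step. Its values were 6.61, 6.1, 7.5 and 6.8 RPKM in naive, 7.78, 12.9, 9.54 and 7.37 at 2 h, and 18.4, 25.6, 13.9 and 13.5 at 24 h. At 24 h all 4 libraries were above all others, while at 2 h replicate 4 fell within the naive range. The rise at 24 h was 2.64-fold (log2 fold change 1.24 ± 0.2, SE, adjusted p = 0.000314), and the mean at 24 h was also 1.9-fold that at 2 h (adjusted p = 0.00345). At 2 h the difference from naive was 0.40 with a 95% interval of -0.03 to 0.82 (adjusted p = 0.134). It passed with library weights (0.55, adjusted p = 0.0329), which give libraries with a wider spread less weight, and was 0.25 without 2 h replicate 2 (adjusted p = 0.342).

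The platelet-type subunit gene Pfkp fell between the times, where Pfkl rose. It went from 11.1 ± 0.648 RPKM in naive to 15.3 ± 1.41 at 2 h and 8.65 ± 0.786 at 24 h (SD, n = 4 each). Its log2 fold change was 0.43 at 2 h, a rise (adjusted p = 0.00126), and it was below naive at 24 h (-0.32, adjusted p = 0.00458), with no overlap between groups in either comparison. Its difference between 24 h and 2 h was -0.76 (adjusted p = 7.08e-06). The muscle-type gene Pfkm was not tested, with means of 0.286 to 0.407 RPKM.

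Aldoa (ENSMUSG00000030695, chromosome 7, 126795234 to 126800751, minus strand) encodes aldolase A, which splits fructose 1,6-bisphosphate. Its values were 89.5, 87.3, 86.3 and 89.9 RPKM in naive, 77.0, 78.8, 86.2 and 79.1 at 2 h, and 114, 128, 111 and 101 at 24 h. The libraries at 2 h were all below the naive ones, the nearest pair being 86.2 and 86.3 RPKM, and those at 24 h were all above. The difference at 2 h did not pass (log2 fold change -0.14, 95% interval -0.28 to 0.01, adjusted p = 0.125). At 24 h Aldoa was 1.28-fold its naive mean (0.35 ± 0.07, SE, adjusted p = 0.00097), the smallest of the 9 rises. Aldoc, the brain-type aldolase gene, rose 1.72-fold at 24 h, from 7.32 ± 1.05 to 12.6 ± 1.98 RPKM (SD, n = 4 each, limma adjusted p = 0.000345).

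Tpi1 (ENSMUSG00000023456, chromosome 6, 124810586 to 124814296, minus strand) encodes triosephosphate isomerase, which interconverts the products of aldolase. Its values were 32.6, 32.3, 32.6 and 31.3 RPKM in naive, 31.2, 32.7, 36.0 and 30.9 at 2 h, and 60.7, 79.2, 56.4 and 50.4 at 24 h. The naive and 2 h libraries were interleaved, and every 24 h library was above them. The rise at 24 h was 1.91-fold (log2 fold change 0.90 ± 0.11, SE, adjusted p = 4.65e-05). At 2 h the log2 difference was 0.02 with a 95% interval of -0.22 to 0.26.

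Pgk1 (ENSMUSG00000062070, chromosome X, 106187100 to 106203699, plus strand) encodes phosphoglycerate kinase 1, which makes the first ATP of the pathway's harvesting phase. Its values were 12.8, 14.6, 14.7 and 15.6 RPKM in naive, 14.2, 15.0, 17 and 15.1 at 2 h, and 30.1, 35.4, 26.7 and 27.8 at 24 h. As for Tpi1, the naive and 2 h libraries overlapped and the 24 h libraries stood apart. The rise at 24 h was 2.08-fold (log2 fold change 1.0 ± 0.09, SE, adjusted p = 3.74e-06), while the 2 h difference was 0.08 (95% interval -0.12 to 0.28).

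Pgam1 (ENSMUSG00000011752, chromosome 19, 41911923 to 41918660, plus strand) encodes phosphoglycerate mutase 1, which moves the phosphate of 3-phosphoglycerate. It was the one enzyme gene of the lower pathway that had risen by 2 h and rose again by 24 h. Its values were 61.6, 63.7, 64.7 and 64.0 RPKM in naive, 105, 132, 124 and 97.8 at 2 h, and 181, 233, 160 and 143 at 24 h. The 3 groups did not overlap at all. It was 1.81-fold naive at 2 h (log2 fold change 0.83 ± 0.13, SE, adjusted p = 0.000719), 2.83-fold naive at 24 h (1.46 ± 0.13, SE, adjusted p = 4.36e-06) and 1.56-fold higher at 24 h than at 2 h (0.63 ± 0.13, SE, adjusted p = 0.00199).

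Pgam2, the muscle-type mutase gene, shared the early rise and then dropped. It was 2.07 ± 0.48 RPKM in naive, 4.44 ± 0.878 at 2 h and 1.07 ± 0.578 at 24 h (SD, n = 4 each). It was higher at 2 h than in naive (log2 fold change 0.83, adjusted p = 0.00638) and lower at 24 h than at 2 h (-1.42, adjusted p = 7.62e-05). It was also lower at 24 h than in naive (-0.59, adjusted p = 0.0251), with 3 of 4 libraries below the naive range.

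Eno1 (ENSMUSG00000063524, chromosome 4, 150236721 to 150248879, plus strand) encodes enolase 1, which forms phosphoenolpyruvate. Its values were 25.0, 23.4, 24.0 and 22.1 RPKM in naive, 19.9, 22.7, 21.3 and 19.4 at 2 h, and 60.4, 76.5, 59.9 and 53.1 at 24 h. At 2 h 3 of 4 libraries lay below the naive range, and at 24 h every library was far above all others. The difference at 2 h was -0.17 on the log2 scale (95% interval -0.38 to 0.03, adjusted p = 0.176). The rise at 24 h was 2.65-fold over naive (log2 fold change 1.36 ± 0.1, SE, adjusted p = 5.17e-07) and 3.0-fold over 2 h (1.53 ± 0.1, SE, adjusted p = 1.2e-07), the largest of the 10 in that comparison.

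Reads of Eno1 can be confused with those of near-identical gene copies, such as Gm4735. Gm16103 is a less similar copy, 90.1% identical, and both are annotated as 1 exon. Eno1b, 99.5% identical, is not in the stretch shown. The stretch below comes from exon 8 of 12 of Eno1 and the matching stretches of the copies Gm4735 and Gm16103. In it Gm4735 differs from Eno1 by 1 base and Gm16103 by 7. It lies at chr4:150246570-150246629 in Eno1, chr2:80837808-80837867 in Gm4735 and chr1:43786556-43786615 in Gm16103 (GRCm38, transcript strand, 60 bases, read from the GENCODE transcripts). Capitals in the Eno1 line mark bases at which at least 1 copy differs, and capitals in a copy's line mark its own differences from Eno1.
Eno1: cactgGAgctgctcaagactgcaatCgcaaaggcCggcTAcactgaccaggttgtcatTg
Gm4735: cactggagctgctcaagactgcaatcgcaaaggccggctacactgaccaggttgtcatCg
Gm16103: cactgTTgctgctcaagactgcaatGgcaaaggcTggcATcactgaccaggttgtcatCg

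The copies of Eno1 had few reads in the naive and 24 h groups and more at 2 h. Eno1b, 99.5% identical to an Eno1 transcript over 1736 bases, had 0, 0, 0 and 2 recovered reads in the naive libraries, 81, 101, 70 and 58 at 2 h, and 1, 3, 2 and 13 at 24 h. Gm4735, 99.6% identical over 1302 bases, had 0 reads in all 4 naive libraries, 44, 32, 31 and 26 at 2 h, and 3, 0, 0 and 2 at 24 h. Gm16103, 90.1% identical over 1068 bases, had 0 to 2 reads per library in naive and at 24 h, and 20, 10, 22 and 13 at 2 h. Copies took 0.0676% of all reads assigned to Eno1 and its copies in naive, 6.08% at 2 h and 0.115% at 24 h. Every 2 h library was above every other library for each of these 3 copies. They were picked because they reached a mean of 1 RPKM in some group, and for each of them that group was 2 h alone. High values at 2 h therefore follow in part from the choice, so no test is given.

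The same was seen for Gm1840, a copy of Gpi1 on chromosome 8 with 98.7% identity, also picked through its mean at 2 h alone. It had 0 to 2 reads in naive, 34, 30, 17 and 17 at 2 h, and 1 to 4 at 24 h, which is 0.647% of the reads of Gpi1 and this copy at 2 h. Eno1 summed with its copies was 22.2 ± 1.52 RPKM at 2 h (SD, n = 4), against 20.8 ± 1.51 for Eno1 alone, and its log2 difference from naive was then -0.09 (adjusted p = 0.497). How reads that fit several places were counted is not given in the sources used here, and whether counting differed between the groups was not tested.

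Not all copies had reads assigned to them. Of 26 copies of 6 members (Gpi1, Aldoa, Pgk1, Pgam1, Eno1 and Ldha), the 4 named above reached a group mean of 1 RPKM. Pgk1-rs7 and Gm5537 match Pgk1 at 100% over 1255 and 1252 bases, and Pgam1-ps2 matches Pgam1 at 100% over 765 bases. All of them were listed at 0 in all 12 libraries. A read inside such an identical stretch fits both genes, so a listed 0 does not show that these copies were silent. For Ldha, with 11 copies, the copies took 0.0334% of reads in naive and 0.0491% at 24 h. The rises at 24 h were computed again with the reads of copies added, and all 9 calls remained. For any member the copies held at most 0.0676% of reads in naive and 0.115% at 24 h, so these sums could hardly differ. Reads that were not counted for any gene would be missing from the sums, so their effect was not tested.

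**Figure D2:**
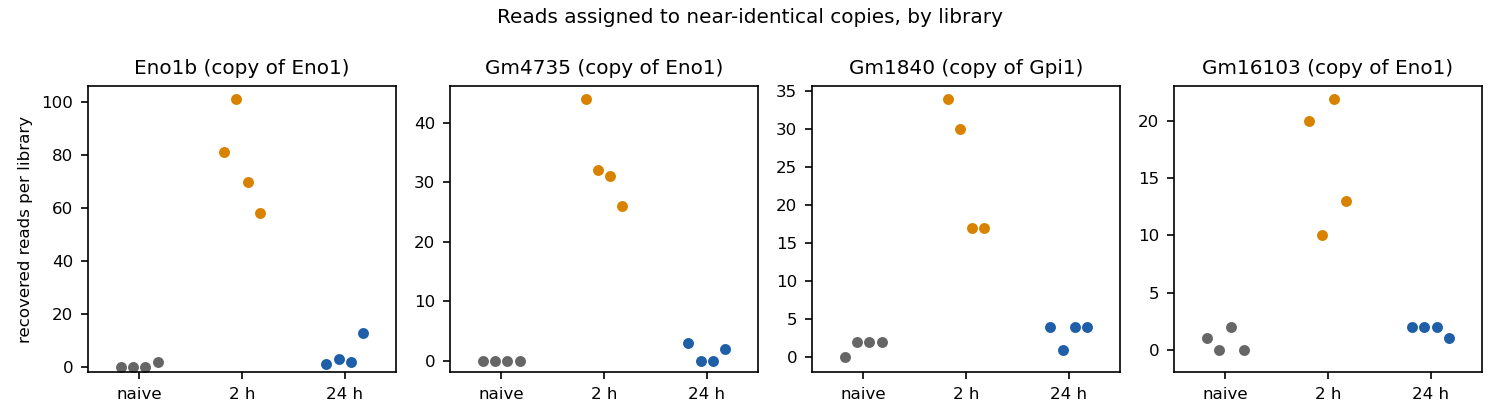
Recovered reads per library (vertical axis) assigned to the 3 copies of Eno1 and the copy of Gpi1 that reached a group mean of 1 RPKM, for the naive, 2 h and 24 h groups; each point is a library. The 2 h libraries stand apart in every panel, from 58 to 101 reads for Eno1b, while the naive libraries have at most 2. Each of these copies reached that mean at 2 h alone, so high values there follow in part from the choice.

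Ldha (ENSMUSG00000063229, chromosome 7, 46841475 to 46855627, plus strand) encodes lactate dehydrogenase A, the form that favours lactate production. Its values were 54.3, 51.4, 54.1 and 51.2 RPKM in naive, 54.4, 59.3, 60.2 and 55.5 at 2 h, and 70.0, 84.6, 67.0 and 66.1 at 24 h. The 3 groups did not overlap, though the nearest pair of naive and 2 h libraries was 54.3 and 54.4 RPKM. The 2 h difference was 0.12 (95% interval -0.04 to 0.28, adjusted p = 0.231). The rise at 24 h was 1.36-fold (log2 fold change 0.43 ± 0.07, SE, adjusted p = 0.000491). Ldhb, which encodes the subunit of the heart-type enzyme, was not tested, with means of 0.383, 0.546 and 0.0533 RPKM in naive, at 2 h and at 24 h.

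**Figure D3:**
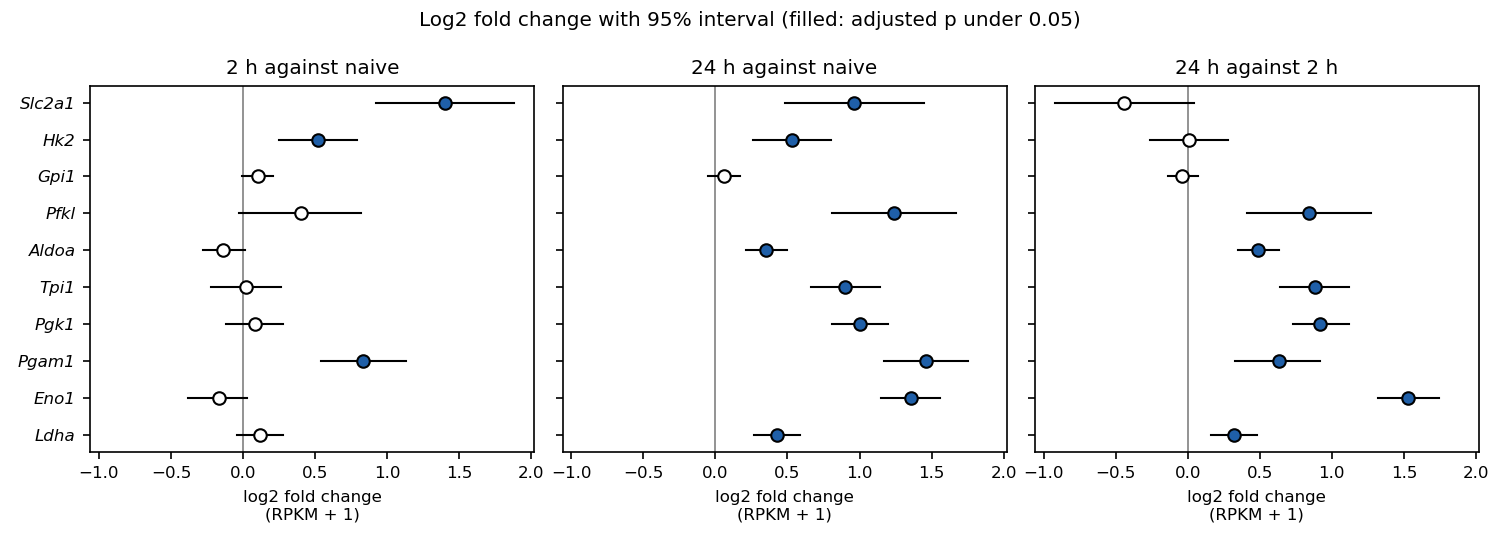
Log2 fold change of each gene on the log2(RPKM + 1) scale (horizontal axis) in the 3 comparisons, with the 95% interval as a line; filled points passed at an adjusted p under 0.05. At 2 h the points of Slc2a1 (1.40), Pgam1 (0.83) and Hk2 (0.52) are filled, at 24 h all but Gpi1 are, and Eno1 has the largest difference between 24 h and 2 h (1.53).

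At 24 h the same libraries were at the ends of the group in most of the genes. Replicate 2 at 24 h was the highest library of its group in 10 of 10 genes, and replicate 4 was the lowest in 8 of 10. Averaged over the 9 enzyme genes, log2(RPKM + 1) exceeded the naive mean by 0.83, 1.1, 0.7 and 0.63 in replicates 1 to 4 at 24 h. All 4 were above the 2 h libraries, whose values were 0.11, 0.32, 0.26 and 0.08. At 2 h replicates 2 and 3 were each the highest in 5 of 10 genes, and replicate 4 was the lowest in 7. In naive there was no such order at the top, with each library the highest in 2 or 3 genes, while replicate 4 was the lowest in 5. Replicate 4 also had the fewest reads of each group (6112586, 7242824 and 9129420 in naive, at 2 h and at 24 h). The deepest library at 24 h was replicate 1 (11997945 reads) and not replicate 2 (10837644). Whether the order follows depth was not tested. Without 24 h replicate 2 the median log2 fold change of the 10 genes at 24 h was 0.77 and 9 of 10 genes still passed.

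**Figure D4:**
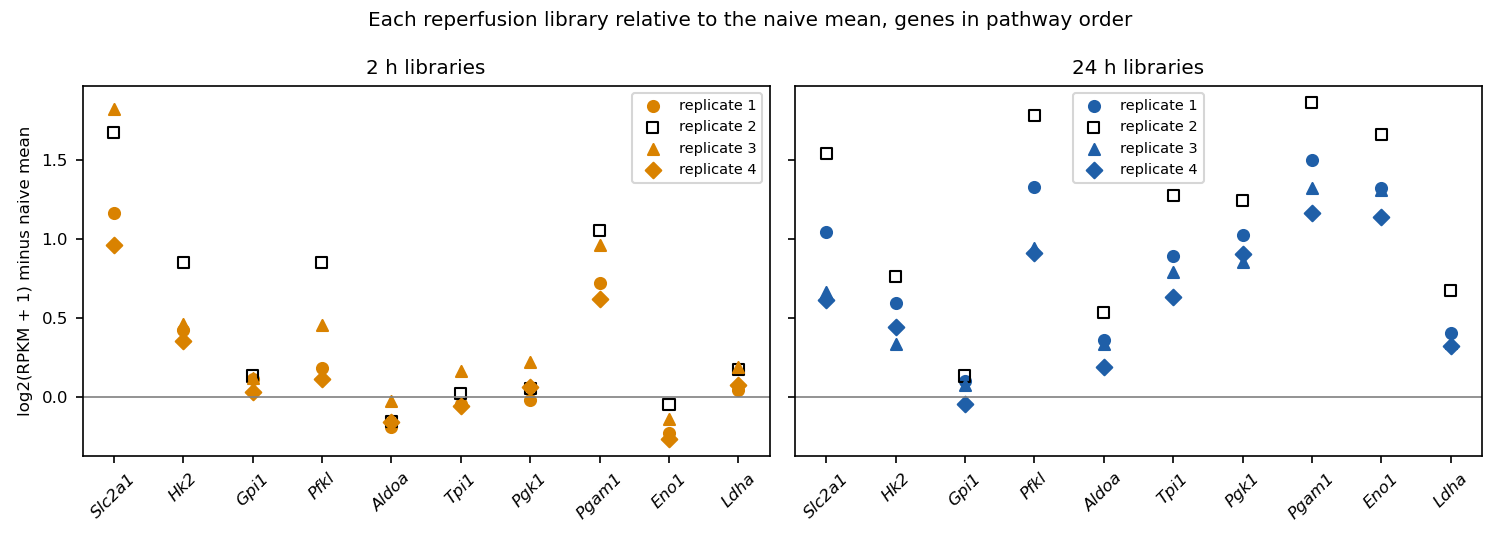
Difference of each reperfusion library from the naive mean in log2(RPKM + 1) (vertical axis) for the 10 genes in pathway order, 2 h on the left and 24 h on the right; symbols are replicates and open squares are replicate 2. At 24 h replicate 2 is the top symbol for all 10 genes, and at 2 h replicates 2 and 3 share the top place, 5 genes each.

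Patterns near those of the members were looked up among 5464 other genes with a mean of at least 5 RPKM, by the root mean square difference in log2(RPKM + 1) after subtraction of each naive mean, over the 12 libraries. All of these genes share the same libraries, so likeness is given as a description. The nearest to Slc2a1 was Spp1, the gene of the secreted protein osteopontin, at a difference of 0.146, with means of 41.5, 101 and 84.3 RPKM in naive, at 2 h and at 24 h. Klhl6, Mreg, B4galt1 and Gnl3 followed at 0.304 to 0.354. The nearest to the mean of the 9 enzymes was Pkm, at 0.08, and Gapdh was the fourth, at 0.097, both of them enzymes of the same pathway that were not used in the mean. Lasp1, which encodes an actin-binding protein, Cltb, a clathrin light chain, and Psmb2, a proteasome subunit, were at 0.088, 0.093 and 0.101.

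The other genes of the pathway, from a list of 19 other glycolytic enzyme genes, were mixed as a set. Of the 10 that could be tested, 2 were higher and 1 lower at 2 h against naive, 3 higher and 2 lower at 24 h against naive, and 4 higher and 2 lower at 24 h against 2 h. The median log2 fold changes were -0.03, 0.02 and 0.12, beside -0.04, 0.0 and 0.05 over all tested genes. These counts stand beside the shares of all tested genes given above for the 10 genes, 14.7% higher and 22.0% lower at 2 h, 25.3% and 20.6% at 24 h, and 30.9% and 21.5% between the times. The 3 higher at 24 h against naive were Gapdh, Pkm and Aldoc, and the steps of Gapdh and Pkm have no gene among the 10. Gapdh, glyceraldehyde-3-phosphate dehydrogenase, went from 46.1 ± 1.3 RPKM in naive and 48.4 ± 1.72 at 2 h to 81.0 ± 12.2 at 24 h (SD, n = 4 each), 1.75-fold over naive (adjusted p = 1.85e-05). Pkm, the pyruvate kinase gene of most tissues, went from 143 ± 3.91 to 170 ± 14.2 and 268 ± 43.4 RPKM (SD, n = 4 each), 1.88-fold at 24 h (adjusted p = 1.69e-05). At 2 h all 4 Pkm libraries were above naive without passing (log2 fold change 0.24, adjusted p = 0.0673). Copies of Gapdh and Pkm were not searched for. At 24 h each step from phosphofructokinase to lactate dehydrogenase thus had a gene called higher than in naive, and the step of Gpi1 did not.

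Among 12 regulators of glycolysis, 8 could be tested, and 4 were higher and 1 lower at 2 h, 2 higher and 4 lower at 24 h against naive, and 1 higher and 6 lower at 24 h against 2 h. Over all tested genes the shares were 14.7% higher and 22.0% lower, 25.3% and 20.6%, and 30.9% and 21.5%, in that order. Hif1a, the oxygen-regulated subunit of HIF-1, rose from 8.72 ± 0.678 RPKM in naive to 13.3 ± 2.45 at 2 h (adjusted p = 0.00336) and 16.6 ± 1.76 at 24 h (SD, n = 4 each, adjusted p = 9.28e-05 against naive). Txnip, whose product restrains glucose uptake and whose transcription follows glucose-derived metabolites, was 129 ± 25.4 RPKM in naive, 106 ± 17.2 at 2 h and 49.8 ± 10.3 at 24 h (SD, n = 4 each). It fell by 1.37 on the log2 scale at 24 h against naive (adjusted p = 8.92e-05), with no overlap. Its relative Arrdc4 went the same way, from 26.8 to 17.4 RPKM at 24 h (adjusted p = 0.000366).

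Of the enzymes that set fructose 2,6-bisphosphate, the activator of phosphofructokinase, Pfkfb3, Pfkfb4 and Tigar could be tested. Pfkfb3, a form with strong kinase activity, was 1.25 RPKM in naive, 2.23 at 2 h and 1.04 at 24 h, with a log2 rise of 0.52 at 2 h (adjusted p = 0.0003). It was lower at 24 h than at 2 h (-0.66, adjusted p = 1.34e-05). Pfkfb4 was lower at both times, at 69.1, 50.2 and 51.0 RPKM (adjusted p = 0.000502 and 0.000302 against naive). Tigar, a phosphatase that lowers fructose 2,6-bisphosphate, was 11.6, 16.2 and 14.2 RPKM and was higher than naive at both times (adjusted p = 0.000214 at 2 h and 0.00288 at 24 h). Myc and Mlxip, transcription factors that act on glycolytic genes, were both lower at 24 h than at 2 h, by 0.89 and 0.68 on the log2 scale as their means went from 6.95 to 3.25 and from 11 to 6.41 RPKM (adjusted p = 4.8e-05 and 0.000753).

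Of 15 genes of lactate and pyruvate handling, all tested, 4 were higher and 3 lower at 2 h, 7 higher and 2 lower at 24 h against naive, and 7 higher and 2 lower at 24 h against 2 h. Over all tested genes the shares were 14.7% higher and 22.0% lower at 2 h, 25.3% and 20.6% at 24 h against naive, and 30.9% and 21.5% between the times. The share lower at 2 h was near that of all tested genes. Pdp1 is among those called lower than in naive at 2 h and at 24 h. Its lowest naive value was 1.0 RPKM, and its highest values were 0.833 at 2 h and 0.857 at 24 h. It met the filter of 1 RPKM in 4 libraries only through naive, the group in which it was high. Its p-values are therefore not given. Slc16a1, which encodes the lactate transporter MCT1, went from 4.74 ± 0.132 to 7.1 ± 2.09 and 10 ± 0.736 RPKM (SD, n = 4 each), 2.11-fold over naive at 24 h (adjusted p = 0.000256). Slc16a3, the lactate exporter MCT4, was higher at 2 h (3.72 to 5.35 RPKM, adjusted p = 0.000921). The pyruvate dehydrogenase kinases, which switch off entry of pyruvate into the mitochondrial cycle, split by isoform. Pdk1 was 2.73 ± 0.197 RPKM in naive, 1.87 ± 0.37 at 2 h and 4.75 ± 0.355 at 24 h (SD, n = 4 each), lower at 2 h (adjusted p = 0.0064) and higher at 24 h (adjusted p = 0.000157). Pdk3 rose at 24 h from 9.03 to 13.5 RPKM (adjusted p = 0.000133), while Pdk4 was 5.49, 8.64 and 3.41 RPKM and lower at 24 h than at 2 h (log2 fold change -1.12, adjusted p = 0.000168). Mpc1, a subunit of the mitochondrial pyruvate carrier, rose from 12.0 to 16.9 RPKM at 24 h (adjusted p = 0.000163).

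Of 13 genes of gluconeogenesis and glycogen, 9 could be tested. At 2 h 0 passed by limma, where 2 of the 9 had an unadjusted p under 0.05, and 1 was called lower by voom on recovered reads. At 24 h 5 were higher and 1 lower than in naive, where 25.3% and 20.6% of all tested genes were. Ugp2, which makes UDP-glucose, rose from 23.2 to 31.2 RPKM at 24 h (adjusted p = 3.76e-05). Pygl, the liver-type glycogen phosphorylase, fell from 86.0 to 54.9 RPKM (adjusted p = 0.000309). Pck2, the mitochondrial phosphoenolpyruvate carboxykinase, was 5.67, 4.61 and 8.3 RPKM and was higher at 24 h (adjusted p = 0.00414). Pcx, pyruvate carboxylase, had means of 0.518, 0.464 and 1.3 RPKM and is among the 5 called higher at 24 h. Its highest values were 0.613 RPKM in naive and 0.492 at 2 h, and its lowest at 24 h was 1.03. It therefore met the filter of 1 RPKM in 4 libraries only through the group in which it was high, so its p-value is not given.

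**Figure D5:**
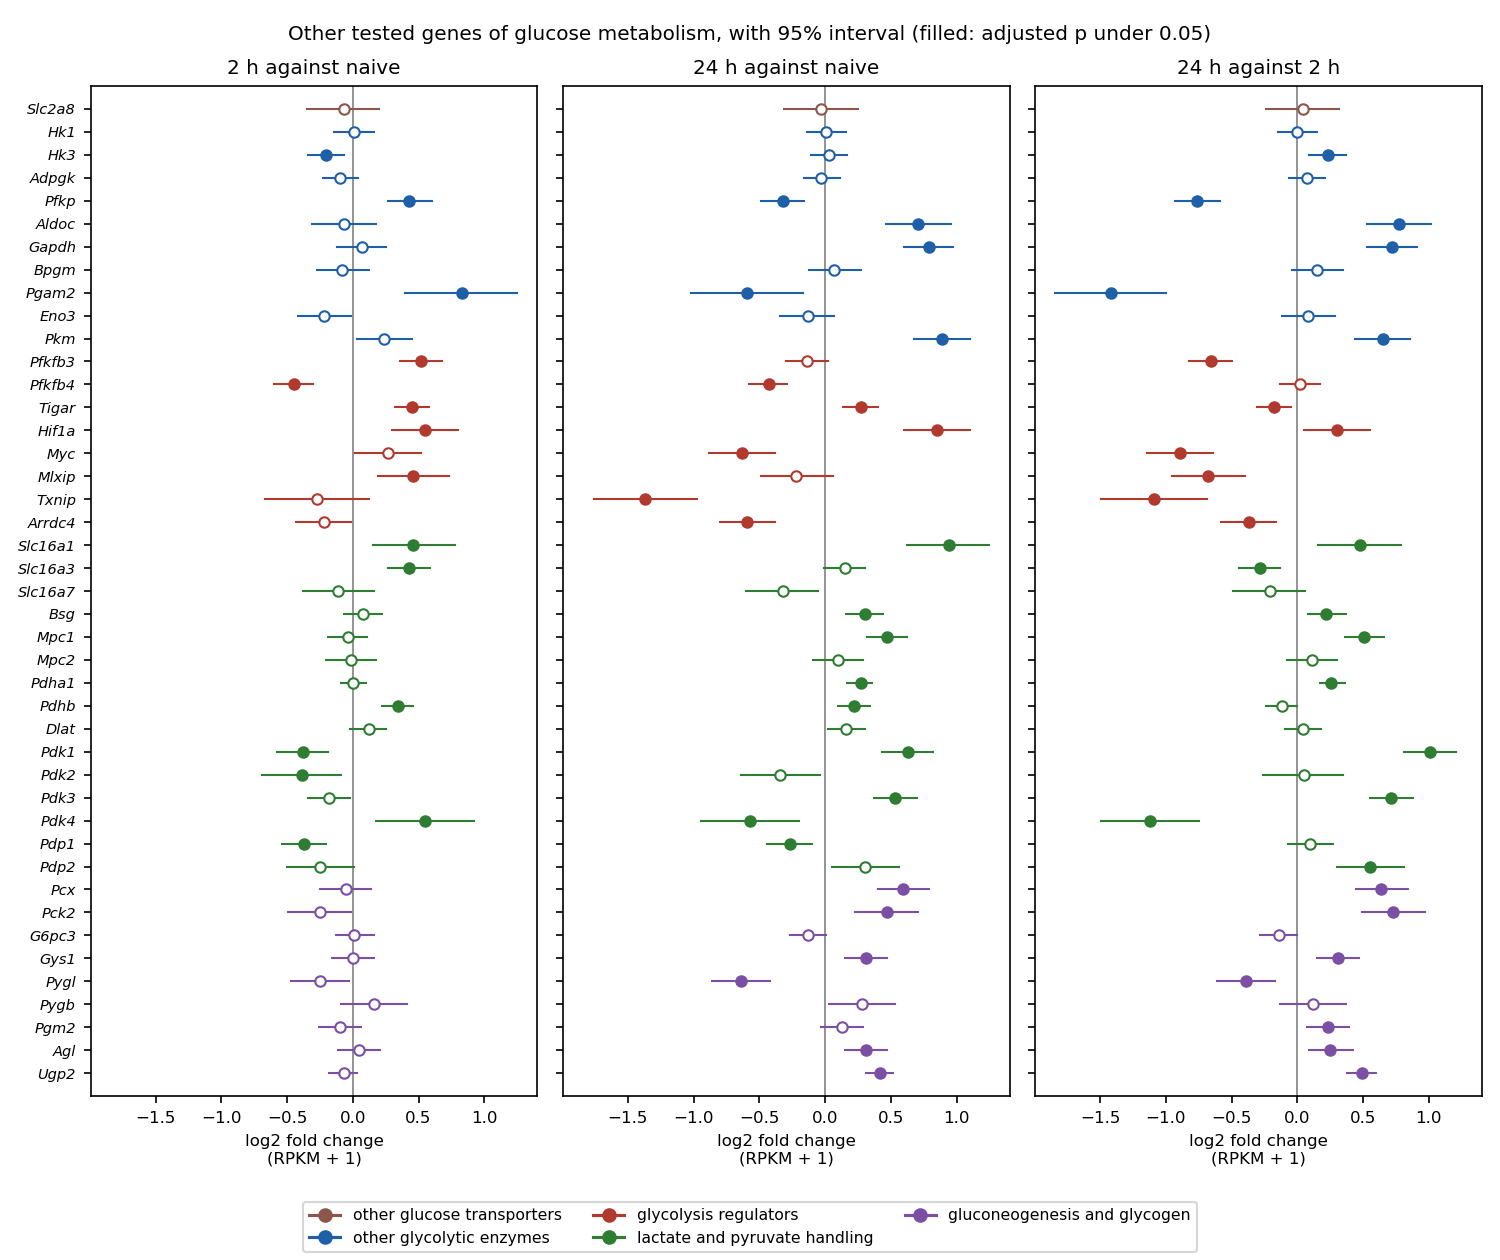
Log2 fold change on the log2(RPKM + 1) scale (horizontal axis) of the tested genes from the 5 lists around the pathway, in the 3 comparisons, with 95% intervals as lines; colours mark the list and filled points passed at an adjusted p under 0.05. Pfkp and Pgam2 are right of 0 at 2 h and left of it at 24 h, Gapdh, Pkm, Aldoc, Hif1a and Slc16a1 are right of 0 at 24 h, and Txnip lies farthest left at 24 h (-1.37).

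The promoters of the 10 genes were searched for ACGTG and GCGTG on both strands, the core letters that HIF-1 is known to bind, and for CACGTG, the E-box read by MYC and by the MLXIP family. The windows run from 250 bases before to 50 bases after the transcription start and come from RefSeq (GRCm38.p6), where all 10 genes were matched. Aldoa and Eno1 have 3 listed starts each and Ldha has 2, and only the start nearest the GENCODE gene start was searched. At least 1 of ACGTG and GCGTG was found in 7 of the 10 windows, against 43.8% of 32851 mouse promoters. Those promoters can include several starts of the same gene, unlike the 10 windows, so the shares are not counted alike. ACGTG was in 5 of 10 (19.6% of all) and GCGTG in 5 of 10 (32.4% of all). A CACGTG also holds ACGTG on each strand, and CACGTG itself was in 1 of 10, that of Ldha, against 7.15% of all.

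The windows below are those of Slc2a1 and Pgam1, higher at both times, of Eno1, with the largest difference between 24 h and 2 h, of Ldha, with the most matches, and of Gpi1, which did not pass. Capitals mark ACGTG or GCGTG on either strand, so CACGT and CACGC are the same motifs on the other strand. They lie at chr4:119108495-119108794 (plus), chr19:41911621-41911920 (plus), chr4:150236458-150236757 (plus), chr7:46845554-46845853 (plus) and chr7:34230287-34230586 (minus).
Slc2a1: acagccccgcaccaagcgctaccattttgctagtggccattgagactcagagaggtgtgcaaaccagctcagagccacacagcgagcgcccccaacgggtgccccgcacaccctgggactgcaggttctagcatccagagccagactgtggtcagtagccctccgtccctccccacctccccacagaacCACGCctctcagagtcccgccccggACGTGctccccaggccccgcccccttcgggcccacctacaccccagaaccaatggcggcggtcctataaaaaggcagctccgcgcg
Pgam1: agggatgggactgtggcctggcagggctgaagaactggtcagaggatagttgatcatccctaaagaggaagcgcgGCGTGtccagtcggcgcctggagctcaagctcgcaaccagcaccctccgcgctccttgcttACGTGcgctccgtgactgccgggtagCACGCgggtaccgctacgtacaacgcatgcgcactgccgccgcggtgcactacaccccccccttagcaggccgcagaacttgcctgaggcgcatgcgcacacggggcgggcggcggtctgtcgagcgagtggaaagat
Eno1: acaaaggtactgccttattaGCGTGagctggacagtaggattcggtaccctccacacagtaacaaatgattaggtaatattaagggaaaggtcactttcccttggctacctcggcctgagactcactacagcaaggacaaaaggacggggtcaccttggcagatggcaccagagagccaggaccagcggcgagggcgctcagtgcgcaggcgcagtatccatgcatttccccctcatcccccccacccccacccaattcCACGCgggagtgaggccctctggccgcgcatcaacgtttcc
Ldha: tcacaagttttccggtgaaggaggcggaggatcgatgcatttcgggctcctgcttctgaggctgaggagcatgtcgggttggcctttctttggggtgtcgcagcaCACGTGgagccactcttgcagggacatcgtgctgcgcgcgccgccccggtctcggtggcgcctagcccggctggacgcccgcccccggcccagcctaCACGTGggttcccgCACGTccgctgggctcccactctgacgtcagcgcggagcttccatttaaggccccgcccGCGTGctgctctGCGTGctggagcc
Gpi1: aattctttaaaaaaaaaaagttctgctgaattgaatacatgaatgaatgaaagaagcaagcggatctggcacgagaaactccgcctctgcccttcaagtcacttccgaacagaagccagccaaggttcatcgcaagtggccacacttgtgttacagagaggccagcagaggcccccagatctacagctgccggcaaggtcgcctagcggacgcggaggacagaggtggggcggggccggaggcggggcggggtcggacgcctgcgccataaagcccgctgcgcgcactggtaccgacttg

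Genes with and without a match were among those that rose. Ldha had 5 of ACGTG and 2 of GCGTG and one of the smaller rises at 24 h (0.43 on the log2 scale). Tpi1 and Aldoa had 0 of either in these windows and rose at 24 h (0.90 and 0.35), and Gpi1 also had 0. The other listed starts of Aldoa were not searched. Pgam1 had 3 matches, Slc2a1, Hk2, Pgk1 and Eno1 had 2 each, and Pfkl had 1. A match is a description of these letters and not a measured binding site.

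Markers of other cell types moved with the groups as follows, and their part in the changes above was not tested. The summed level of 8 neutrophil markers was 26.2 to 35.0 RPKM in naive, 28.3 to 40.7 at 2 h and 41.7 to 47.7 at 24 h. Of the 4 markers that could be tested, 1 was higher and 1 lower at 24 h than in naive. These counts are near the shares of all tested genes, 25.3% higher and 20.6% lower. S100a8 went from 10.2 ± 2.54 RPKM in naive to 29.8 ± 2.74 at 24 h (SD, n = 4 each), while Csf3r went from 6.51 ± 0.841 to 2.01 ± 0.548 and Mmp8 from 12.3 ± 1.28 to 9.84 ± 0.956 RPKM. Cxcr2 was 1.13 ± 0.239 RPKM in naive and 1.47 ± 0.345 at 24 h (SD, n = 4 each). The defining gene Ly6g was listed at 0 in all naive and all 24 h libraries and the S100a9 mean stayed under 0.7 RPKM in every group. Summed levels of the 6 monocyte markers were 2.48 to 3.56, 0.987 to 1.7 and 1.4 to 1.99 RPKM in naive, at 2 h and at 24 h. Those of the 6 interstitial macrophage markers were 6.13 to 10.1, 2.65 to 5.12 and 3.2 to 8.69 RPKM, the highest 24 h value being in replicate 2, the library in which the 10 genes were highest.

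Lymphocyte and epithelial markers had lower summed levels at 24 h than in naive. The 8 lymphocyte markers summed to 6.22 to 10.5 RPKM in naive, 2.37 to 5.05 at 2 h and 1.04 to 2.17 at 24 h. The 6 epithelial markers summed to 56.1 to 61.0, 47.5 to 67.3 and 23.2 to 33.6 RPKM. Most of that fall was in Epcam, which was 42.5 RPKM in naive and 12.2 at 24 h. Of the 3 epithelial markers that could be tested, 1 was lower at 24 h than in naive and 2 did not pass. Over all tested genes 20.6% were lower. Sftpc was 7.22 RPKM in naive and 5.8 at 24 h, and Scgb1a1 was 7.6 and 8.36. The 7 endothelial and stromal markers stayed at or under 2.82 RPKM and the 8 red cell and platelet markers at or under 4.35 RPKM in every library.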

How the data were processed

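RNA came from a PicoPure isolation and was made into Illumina libraries of polyadenylated RNA, per the labels' protocols. The authors deposited RPKM values, 1 table with 12 library columns and 43430 Ensembl genes. The build was mm10 and the tools were HTSeq, TopHat2 and bcl2fastq, per the submitters' processing notes. Tool versions, annotation, gene lengths and the handling of reads with several matches were not given in the sources used here. Libraries were grouped by their time point label. Symbols for 42546 genes and all positions came from GENCODE M21 (GRCm38, the assembly of mm10).

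The product of RPKM and gene length steps with the read number, which gave back reads whole to within 0.02 for 11417 of 11419 genes tested (99.98%). RPKM values are not counts, so the main test was limma 3.58.1 (R 4.3.3) with a variance trend on log2(RPKM + 1), over all 12 libraries, for genes with at least 1 RPKM in at least 4 libraries. Tests were two-sided, with Benjamini-Hochberg adjustment over the 11419 genes of each comparison and a threshold of 0.05. The log2(RPKM + 1) scale understates changes of low genes, and folds are ratios of mean RPKM. The steps were tested on simulated data. Libraries shared 0% of values above 0 exactly.

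Members, gene lists and the naming rule were chosen with earlier results of these data known. The rule names all 10 members, up to 4 tested genes with the smallest p per list and comparison, near-identical copies with a group mean of at least 1 RPKM and the 5 nearest patterns. Copies are genes matched by BLAST 2.17.0 to a member's transcript at 90% identity or more over at least 300 bases or most of the copy; 11 short matches of at most 71 bases were not counted as copies, but their reads were included where reads of copies were added to a member. The fits were repeated with 25 other settings, among them voom on the recovered reads, other pseudocounts, filters and scalings, a replicate block and leaving out each library.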

Additional observations from a re-analysis of the deposited data

Results flagged for a closer look

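In 1 of 30 groups of 4 libraries a member had a library far from the others. Gpi1 was 58.5 RPKM in naive replicate 4 and 63.0 to 63.8 RPKM in the other naive libraries, a gap of 0.839 of the group's range, just past the 95% critical value of Dixon's test. Chance alone marks about 1 in 20 such groups.

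The change from naive differed between 24 h and 2 h for 7 members, tested as the difference between the reperfusion groups by limma. The naive mean cancels in that difference, so these are the same 7 calls as for 24 h against 2 h above. Over all tested genes 30.9% were called higher in that comparison. It was larger at 24 h by 1.53 on the log2 scale for Eno1 (adjusted p = 1.2e-07), 0.92 for Pgk1 (adjusted p = 5.29e-06), 0.88 for Tpi1 (adjusted p = 3.92e-05) and 0.84 for Pfkl (adjusted p = 0.00345). It was larger by 0.63 for Pgam1 (adjusted p = 0.00199), 0.49 for Aldoa (adjusted p = 6.78e-05) and 0.32 for Ldha (adjusted p = 0.00333). For each of these genes 4 of 4 libraries at 24 h were above all 4 at 2 h, which happened for 27.5% of all tested genes.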

How the results depend on the processing

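Over 25 other settings, 733 of 750 log2 fold changes of the members kept their direction and their side of the threshold. Some settings leave a log2 fold change as it was, so under them the side of the threshold alone could change. They include the other filters, no variance trend, the replicate block and leaving out a library of the group not compared. The 19 calls of members (3, 9 and 7) were all kept under every setting. Gained calls were Gpi1 at 2 h with median-ratio scaling, Pfkl at 2 h with library weights, and Slc2a1 at 24 h against 2 h with library weights (-0.61), without 2 h replicate 4 (-0.59) and without 24 h replicate 2 (-0.63). The 12 changes of direction were all in uncalled differences near 0. Hk2 at 24 h against 2 h was -0.05 with median-ratio scaling, -0.06 with quantile normalisation, -0.0045 with equal totals, -0.11 with library weights and -0.07 to 0.12 with each library left out in turn, below 0 without 2 h replicate 1, 3 or 4 or 24 h replicate 1 or 2. Tpi1 at 2 h was -0.0024 with quantile normalisation and -0.03 to 0.04 with each library left out, below 0 without 2 h replicate 3, and Gpi1 at 24 h against 2 h was 0.0025 without 24 h replicate 4.

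A filter at 5 RPKM, which leaves 6467 genes to test, moved the genes called at 2 h from 4189 to 2669, and those between 24 h and 2 h from 5992 to 3923. With median-ratio scaling the split of higher and lower genes was 2062 and 2043 at 2 h (1675 and 2514 without it). At 24 h against naive it was 2887 and 2354, and 2557 and 2738 with quantile normalisation, with 9 members higher in both. Between 24 h and 2 h it was 2984 and 3011, or 3033 and 2978 with quantile normalisation (3534 and 2458 without either). voom on recovered reads called 4342, 5403 and 6295 genes at 2 h, at 24 h and between them. With a replicate block the fit called 4020, 5107 and 5877 genes, against 4189, 5241 and 5992 without it, and the same number of members. Same-numbered libraries did not deviate together (r from -0.0426 to 0.0548 over 12 pairs), and 3 of 12 libraries correlated best with their own number.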
